A study of Homo sapiens with 10 samples.

Results

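Gene expression in human embryonic stem cells was compared directly between knockdown of KDM1A and knockdown of E2F6, a pair of repressor proteins. The cells were H1, an established line, and carried short hairpin RNAs (shRNAs) against KDM1A (shKDM1A) or E2F6 (shE2F6). Each group had 2 libraries, so 4 of the 10 libraries of the series entered the difference itself, over all 14785 rows of the table. A control group with a luciferase shRNA (shLUC), for which human cells have no target, and groups with shRNAs against MAFK or SMARCA4 entered only the estimate of the spread, and shLUC values are given for orientation. All groups shared an unmodified genotype, delivery of the shRNA by a virus packaged in 293T cells, puromycin selection, and feeder-free culture on Matrigel in mTeSR1 medium. The design text calls the 2 libraries biological duplicates. The number of hairpins per target and the time of harvest are not given in the sources used here. The comparison asks which rows separate the loss of one repressor from the loss of the other, and it was read on the rows on which both shKDM1A libraries agreed. Agreement was taken as values at most 1 apart on the log2 scale, which held for 13211 rows (89.4%).

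KDM1A, also called LSD1, removes methyl groups from lysine 4 of histone H3. It works with RCOR proteins and histone deacetylases in the CoREST complex, which the neuronal repressor REST and the blood factors GFI1 and GFI1B recruit to their targets. E2F6 is an E2F protein without an activation domain. With MGA, MAX, L3MBTL2 and PCGF6 it forms a variant Polycomb complex, PRC1.6, known for keeping germline genes silent, and it binds the same short DNA motif as the E2F factors that drive DNA replication genes. In embryonic stem cells KDM1A is known for silencing enhancers during differentiation and for restraining endogenous retroviruses.

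The values were normalized tag counts, whole numbers that the deposited table had already brought to one scale, so all libraries had a median of 594 and totals from 22836548 to 22855295. The read depth is therefore unknown, and differences are on the log2(value + 1) scale, which understates those of low rows. The SD between the libraries of a group, over all rows, was 0.530 on the log2 scale in shKDM1A and 0.308 in shE2F6, and from 0.264 to 0.335 in the other 3 groups. The main test, limma with a separate variance weight for each group, gave shKDM1A 4 times the variance of shE2F6. At the edge of agreement, BORCS8-MEF2B had shKDM1A libraries 0.989 apart on the log2 scale and was kept, while SYN1 had them 1.01 apart and was not. Stem cell genes were present in all 4 libraries, with LIN28A from 41812 to 51691 and SOX2 from 5367 to 6490 normalized tag counts. Of the marker lists, 4 of 21 ectoderm, 5 of 20 mesoderm, 3 of 15 endoderm and 6 of 17 trophoblast genes were measured.

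**Figure D1:**
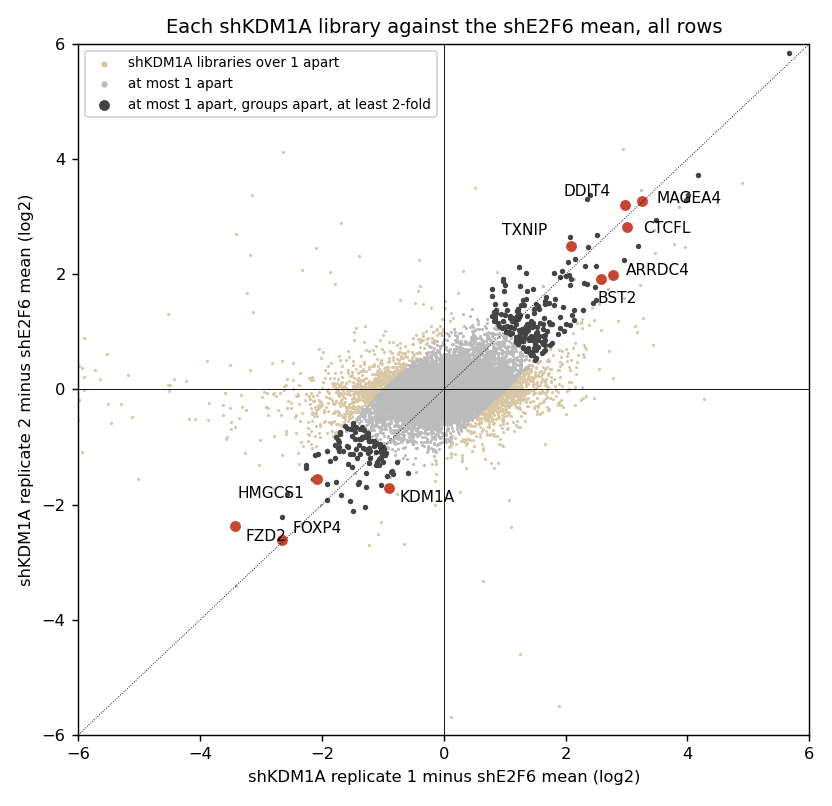
Each point is a row of the table. The horizontal axis is shKDM1A replicate 1 and the vertical axis shKDM1A replicate 2, each minus the shE2F6 mean (log2), and the dotted line marks equal values. Rows with shKDM1A libraries over 1 apart are beige and the rest grey. The 205 higher and 107 lower rows that were at least 2-fold apart without overlap, on rows where the shKDM1A libraries agreed, are black. Rows named in the text are red, and 30 rows lie outside the axes.

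The targeted transcripts were examined first. KDM1A (ENSG00000004487, chromosome 1, 23019443 to 23083689, GRCh38, plus strand) had 3290 and 1879 normalized tag counts in the shKDM1A libraries and 5925 and 6410 in shE2F6. Both shKDM1A values lay below both shE2F6 values, and the shKDM1A mean was 41.9% of the shE2F6 mean. The log2 difference, shKDM1A minus shE2F6, was -1.31 (SE 0.25), with an unadjusted p of 0.000363 and a limma adjusted p of 0.359. E2F6 (ENSG00000169016, chromosome 2, 11444375 to 11466177, minus strand) had 639 and 499 in shKDM1A against 336 and 304 in shE2F6. The groups did not overlap here either. Its log2 difference was 0.82 (SE 0.26, limma adjusted p 0.675). In the shLUC libraries KDM1A had 6344 and 5925 and E2F6 had 491 and 553, so each transcript was lowest in the group whose shRNA targets it. Neither difference passed the threshold.

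CTCFL and FZD2, 2 of 14785 rows (0.0135%), passed the test, with a limma adjusted p under 0.05 over the whole table. CTCFL, also called BORIS, is a paralog of the insulator protein CTCF that is normally made in the testis. CTCFL (ENSG00000124092, chromosome 20, 57495966 to 57525652, minus strand) had 1140 and 995 normalized tag counts in shKDM1A, 151 and 131 in shE2F6 and 96 and 82 in shLUC. The shKDM1A values stood far above those of the other 2 groups, and the shMAFK and shSMARCA4 libraries, from 100 to 284, also lay below them. CTCFL was the only row called higher (0.00676% of rows), by 2.91 on the log2 scale (SE 0.29, limma adjusted p 0.0132), or 7.53-fold. Its promoter is shown because it precedes the row that rose. RefSeq (GRCh38.p14) gives these 250 bases before the start, chr20:57524698-57524947 on the minus strand, in which none of the motifs described further on was found.
CTCFL: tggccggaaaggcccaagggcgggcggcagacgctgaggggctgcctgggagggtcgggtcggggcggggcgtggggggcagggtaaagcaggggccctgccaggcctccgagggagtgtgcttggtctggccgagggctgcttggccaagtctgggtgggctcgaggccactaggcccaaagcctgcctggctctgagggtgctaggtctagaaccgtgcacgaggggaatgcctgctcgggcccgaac

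FZD2, a Frizzled receptor for secreted Wnt ligands, was the only row called lower (0.00676% of rows). FZD2 (ENSG00000180340, chromosome 17, 44557459 to 44559570, plus strand) had 38 and 80 normalized tag counts in shKDM1A, 422 and 418 in shE2F6 and 780 and 755 in shLUC. Values in shKDM1A were the lowest of all 10 libraries, those in shMAFK and shSMARCA4 lay from 224 to 333, and those in shLUC were the highest. FZD2 fell by 2.91 on the log2 scale (SE 0.30, limma adjusted p 0.0132), a 7.49-fold difference. Its shKDM1A libraries were 1.05 apart, just over the limit for agreement, so FZD2 is outside the 13211 rows although both libraries lay well below shE2F6.

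Both calls depended on the libraries in the fit. In a fit of only the 4 libraries the limma adjusted p was 0.103 for CTCFL and 0.273 for FZD2. Without shKDM1A replicate 1 it was 0.852 and 0.590, and without shE2F6 replicate 2 it was 0.0742 for both. Without shE2F6 replicate 1 it was 0.0310 for CTCFL and 0.0508 for FZD2. The log2 difference ran from 2.81 to 3.01 for CTCFL and from -3.43 to -2.38 for FZD2 when each of the 4 libraries was left out in turn.

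**Figure D2:**
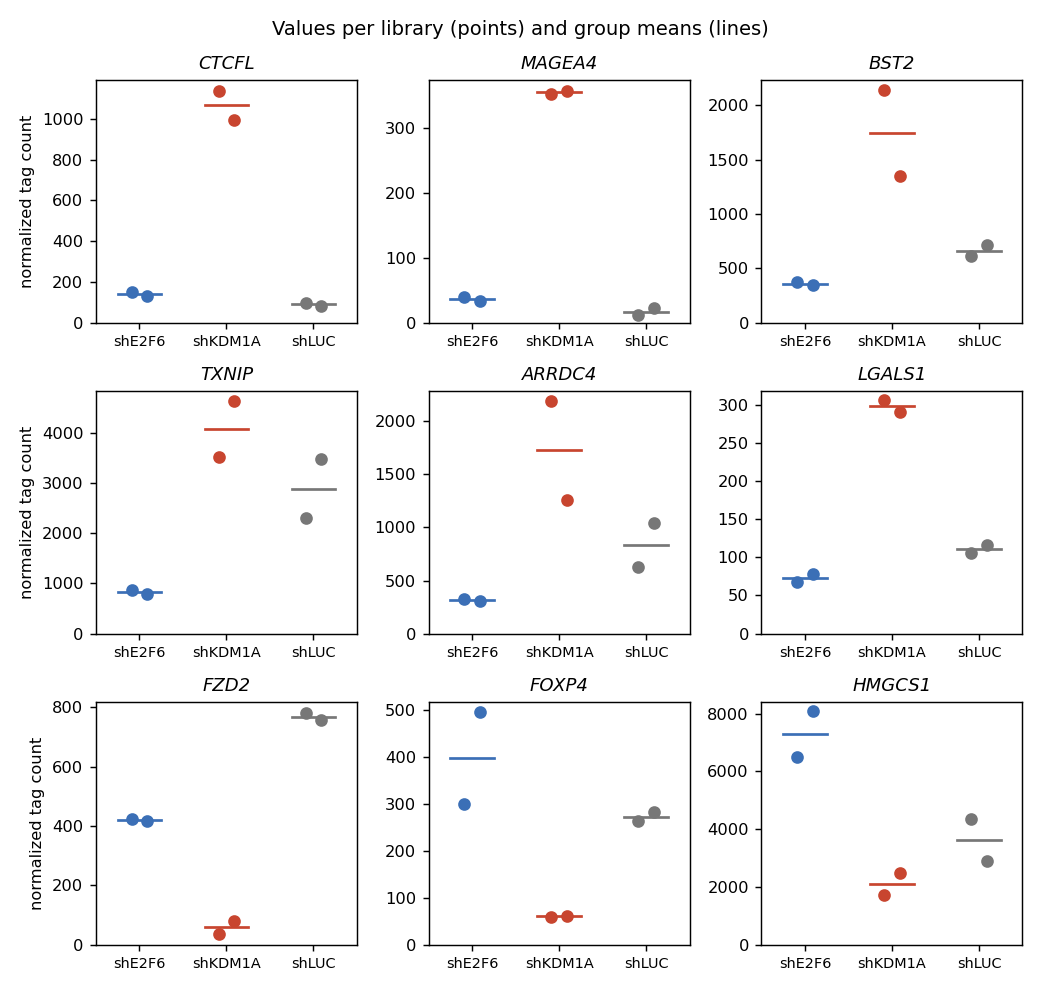
Each panel shows 1 gene, with the normalized tag count on a vertical axis that starts at 0. Points are the 2 libraries of shE2F6, shKDM1A and shLUC, and lines are the group means. CTCFL, at 1140 and 995 in shKDM1A against 151 and 131 in shE2F6, and FZD2, at 38 and 80 against 422 and 418, are the 2 genes that passed the test.

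Beyond these 2 genes the comparison is described by counts. Values of the groups did not overlap in 38.4% of rows. On agreeing rows without overlap, shKDM1A was higher in 2582 rows (17.5%) and lower in 2735 (18.5%), and the median log2 difference over all rows was -0.016. The unadjusted p was under 0.05 in 1081 rows (7.31%), 509 of them higher (3.44%) and 572 lower (3.87%). Of the agreeing rows without overlap, 205 (1.39%) were at least 2-fold higher in shKDM1A and 107 (0.724%) at least 2-fold lower, with medians of 1.24 and -1.17. Genes made up 204 (1.48% of gene rows) and 106 (0.768%) of these rows. Among gene rows, 17.1% were higher and 19.2% lower without overlap on agreeing rows, and the counts of each gene list are set beside these shares.

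The shLUC libraries show on which side of the control such a gap lay. Among the 205 higher rows, the shLUC mean lay between the groups in 166, beyond shE2F6 in 31 and beyond shKDM1A in 8, and it was nearer to shE2F6 in 142. Among the 107 lower rows it lay between the groups in 93 and was nearer to shE2F6 in 73. Most of the wide gaps therefore had shKDM1A at the far end. The shLUC libraries themselves were at least 2-fold apart in 31 of the 205 higher and 5 of the 107 lower rows, against 150 of all rows (1.01%), and replicate 2 was above replicate 1 in 154 of the 205 and 23 of the 107. The part of this difference between the control libraries in the result was not tested.

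Beside CTCFL, the widest gap among germline genes was that of MAGEA4, a cancer-testis antigen of the MAGE family on chromosome X. MAGEA4 had 354 and 358 normalized tag counts in shKDM1A, 40 and 33 in shE2F6 and 11 and 22 in shLUC. The shKDM1A libraries stood apart from the other 8 libraries, of which the highest had 50. Its log2 difference was 3.26 (SE 0.89, limma adjusted p 0.636). LINC02294, a long noncoding RNA on chromosome 14, had 116 and 85 in shKDM1A against 5 and 6 in shE2F6 and 6 and 5 in shLUC. LINC01807, on chromosome 2, had 146 and 94 in shKDM1A and was listed at 0 in both shE2F6 libraries, with 44 and 65 in shLUC, so no fold is given.

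Alpha arrestin genes were among the wide gaps. TXNIP encodes an arrestin-like protein that inhibits thioredoxin and limits glucose uptake, and it is a textbook target of the glucose-sensing factor MondoA. TXNIP (chromosome 1, 145992435 to 145996600, minus strand) had 3528 and 4646 normalized tag counts in shKDM1A, 864 and 794 in shE2F6 and 2296 and 3474 in shLUC. The shKDM1A and shE2F6 values were far apart, and the shLUC values lay between them, close to shKDM1A. In shMAFK TXNIP had 2967 and 3262, also near shKDM1A. Its log2 difference was 2.29 (SE 0.34, limma adjusted p 0.161, or 0.0146 without group weights). ARRDC4, a related alpha arrestin (chromosome 15, 97960698 to 97973838, plus strand), had 2190 and 1259 in shKDM1A, 330 and 304 in shE2F6 and 626 and 1038 in shLUC. The order of the 3 groups was that of TXNIP. The log2 difference of ARRDC4 was 2.39 (SE 0.42, limma adjusted p 0.244, or 0.0252 without group weights). ARRDC3 had 664 and 518 in shKDM1A against 178 and 198 in shE2F6. Of 8 measured genes on a list of alpha arrestins and MondoA partners, chosen after the values were seen, 4 were higher without overlap and 1, MLXIP, which encodes MondoA, was lower (1136 and 1458 against 1874 and 1991), where 17.1% of gene rows were higher and 19.2% lower. The list's median log2 difference was 0.71, from 0.48 without shKDM1A replicate 2 to 0.94 without replicate 1.

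Other genes with large gaps on agreeing libraries had various roles. BST2, an interferon-inducible membrane protein that tethers budding viruses, had 2147 and 1349 normalized tag counts in shKDM1A, 370 and 346 in shE2F6 and 614 and 710 in shLUC. LDHD, a mitochondrial D-lactate dehydrogenase, had 568 and 613 in shKDM1A against 132 and 90 in shE2F6 and 188 and 228 in shLUC. LGALS1, which encodes the sugar-binding protein galectin-1, had 306 and 290 against 68 and 78, with 106 and 116 in shLUC. In shMAFK, BST2 had 1050 and 1526 and LDHD had 394 and 318. In all 3 genes shLUC lay nearer to shE2F6. Their log2 differences were 2.25, 2.43 and 2.02, with limma adjusted p values of 0.161, 0.191 and 0.214. Without group weights each of these 3 had a limma adjusted p of 0.0146, among 19 rows that passed (0.129%; 17 higher, 2 lower), CTCFL and FZD2 included. APC2, a neuronal relative of the Wnt regulator APC, had 369 and 252 in shKDM1A against 30 and 34 in shE2F6 and 63 and 153 in shLUC. The shMAFK libraries were about as high, at 348 and 320. For APC2 the log2 difference was 3.22 (limma adjusted p 0.471, or 0.0254 without group weights). IGFBP2, which binds insulin-like growth factors, had 61943 and 41812 against 17675 and 19696 (limma adjusted p 0.0994). Values above 15000 lie on widely spaced steps in this table, so the size of the IGFBP2 difference is coarse.

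Genes of the amino acid stress response were among the widest gaps in favour of shKDM1A. They are switched on by ATF4 when amino acids run short or unfolded proteins gather in the endoplasmic reticulum. Of 22 measured genes on a list of both stress branches, 13 were higher in shKDM1A and 2 lower without overlap, where 17.1% of all gene rows were higher and 19.2% lower by the same rule. The list's median was 0.60, from 0.57 to 0.84 when each of the 4 libraries was left out, and 0 of its genes passed the test over all rows. DDIT4, an inhibitor of mTORC1 signalling, had 8630 and 10074 normalized tag counts in shKDM1A, 990 and 1220 in shE2F6 and 2170 and 6580 in shLUC. Its log2 difference was 3.08 (SE 0.75, limma adjusted p 0.636, or 0.0315 without group weights). CHAC1, which breaks down glutathione, had 1142 and 2200 against 258 and 191, with 142 and 1436 in shLUC. TRIB3, a pseudokinase that feeds back on ATF4, had 443 and 480 against 97 and 100, with 96 and 224 in shLUC. In these 3 genes the shLUC libraries disagreed, and replicate 2 lay toward shKDM1A. The shMAFK libraries were also far above shE2F6, with DDIT4 at 8497 and 7578, CHAC1 at 2818 and 1592 and TRIB3 at 1022 and 540.

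Enzymes and transporters of amino acid supply showed the same order. ASNS, asparagine synthetase, had 3474 and 4808 normalized tag counts in shKDM1A against 2208 and 1662 in shE2F6. SLC7A11, the cystine importer, had 2156 and 3128 against 989 and 820. ATF4 itself, the factor that drives the branch, differed little, with 7040 and 6077 against 5923 and 4704. SDF2L1, a chaperone partner, had 136 and 124 in shKDM1A against 394 and 497 in shE2F6, and HSPA5, the main chaperone of that compartment, overlapped at 12340 and 6828 against 14834 and 11635. Over the list, 18 of 22 genes were higher in shLUC replicate 2 than in replicate 1, with a median gap of 0.59 between those control libraries. The summed level of the list was 113650 and 96547 in shKDM1A, 74070 and 70645 in shE2F6, 58547 and 79862 in shLUC and 114989 and 98873 in shMAFK. The part of the gap between the control libraries in these values was not tested.

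Metallothioneins, small proteins that bind zinc and copper, were the list with the highest median, 1.41 over 9 measured genes of the list. Without overlap, 6 (66.7%) were higher and 2 (22.2%) lower, where 17.1% and 19.2% of gene rows were. MT2A had 1501 and 1173 normalized tag counts in shKDM1A and 110 and 639 in shE2F6. MT1X had 4390 and 4958 against 1859 and 1903. MT1G had 3755 and 3901 against 590 and 1701. The shE2F6 libraries differed widely from each other for MT2A and MT1G and hardly for MT1X. They also differed widely for MT1E (127 and 439), MT1H (234 and 916) and MT1F (108 and 336). In each of these genes shE2F6 replicate 1 was the lower library. SLC30A1, the zinc exporter induced by the same zinc sensor, had 7682 and 2910 against 1740 and 1809, but its shKDM1A libraries did not agree. The zinc sensor gene MTF1 had 374 and 423 against 449 and 461, and SLC39A10, a zinc importer, had 2354 and 4340 against 5626 and 6746. No gene of the list passed (0 of 9), and the median ran from 1.11 without shE2F6 replicate 1 to 1.90 without shKDM1A replicate 2. In shLUC, MT2A had 245 and 362 and MT1G had 878 and 1600. Over the list, 8 of 9 genes were higher in shLUC replicate 2 than in replicate 1, with a median gap of 0.62. The part of this gap between the control libraries in the result was not tested. The MT1 genes are near-identical copies whose reads may have been shared between them.

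**Figure D3:**
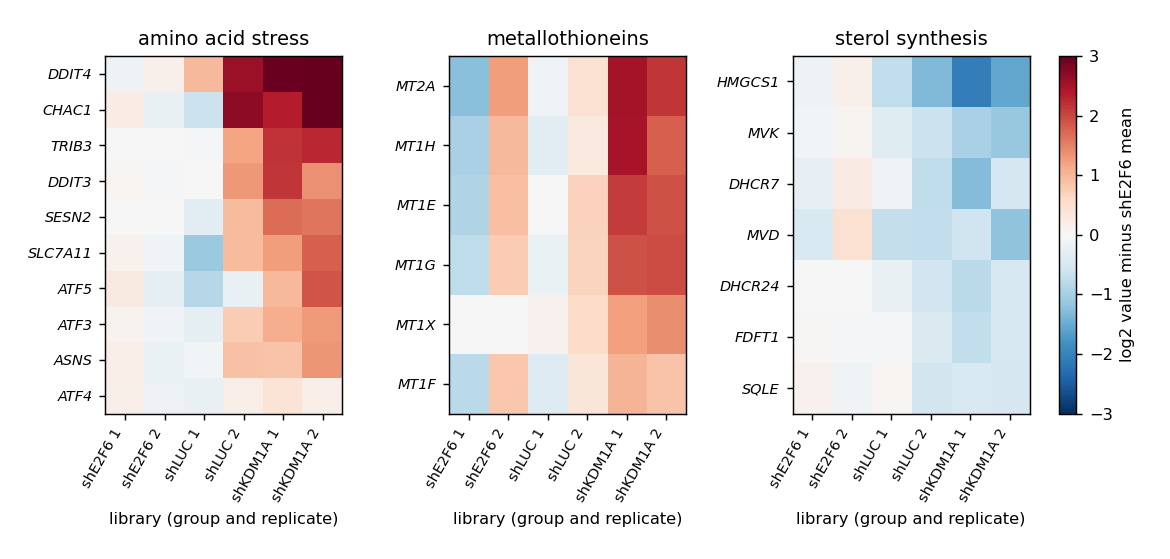
Colours give the log2 value of each gene (rows) in each library (columns) minus the shE2F6 mean, for amino acid stress genes, metallothioneins and sterol synthesis genes. The scale ends at 3 in both directions. Stress genes and metallothioneins are darkest red in the shKDM1A libraries and sterol genes are bluest there, while shLUC replicate 2 lies toward shKDM1A in most stress genes, as for DDIT4 at 6580 against 2170 in replicate 1.

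The widest gaps on the lower side were of genes with various roles. FOXP4, a forkhead repressor, had 60 and 62 normalized tag counts in shKDM1A, 300 and 495 in shE2F6 and 264 and 282 in shLUC. All other values of these 3 groups lay well above shKDM1A, whereas shMAFK, at 76 and 77, and shSMARCA4, at 72 and 110, were low as well. Its log2 difference was -2.64 (SE 0.42, limma adjusted p 0.191, or 0.0146 without group weights). TUBB3, the neuronal beta-tubulin (chromosome 16), had 1215 and 2266 against 5708 and 5925, with 5536 and 3264 in shLUC. It overlaps AC092143.1, whose values were nearly the same, so their reads cannot be told apart. ACTG2, a smooth muscle actin, had 42 and 58 against 217 and 340, and CORO1A, which binds actin, had 60 and 73 against 210 and 250. In shLUC, ACTG2 had 118 and 94 and CORO1A 98 and 80, nearer to shKDM1A than to shE2F6. CORO1A was also low in shMAFK, at 106 and 46, and in shSMARCA4, at 68 and 64. MAP1A, which binds microtubules, had 30 and 34 against 98 and 113. CNIH2, a partner of glutamate receptors, had 38 and 65 against 184 and 291, and IQSEC2, a synaptic exchange factor, had 767 and 454 against 1884 and 1866. In shLUC, MAP1A had 100 and 66, CNIH2 had 186 and 112 and IQSEC2 had 1308 and 862. The log2 differences of these 6 genes lay between -2.44 for ACTG2 and -1.67 for IQSEC2, and none passed the test.

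Enzymes of cholesterol synthesis were mostly lower in shKDM1A. HMGCS1, which makes the precursor of mevalonate, had 1708 and 2473 normalized tag counts in shKDM1A, 6490 and 8086 in shE2F6 and 4340 and 2910 in shLUC. The shKDM1A values were the lowest and the shE2F6 values the highest of these 3 groups. The shMAFK libraries were lower still, at 1476 and 1534, and shSMARCA4 had 10757 and 6928. Its log2 difference was -1.82 (SE 0.40, limma adjusted p 0.614). MVK, mevalonate kinase, had 122 and 108 against 224 and 254. On a list of 24 sterol synthesis genes, chosen after the values were seen, 19 were lower and 1, SREBF2, was higher without overlap, and the median was -0.51. These counts are 79.2% and 4.17% of the list, beside 19.2% of gene rows lower and 17.1% higher. SREBF2 encodes the factor that drives the pathway and had 7680 and 6746 against 5420 and 6578. The unadjusted p was under 0.05 in 8 of the 24, all lower, where 3.87% of all rows were lower at that p, and 0 passed the test. In 21 of the 24 genes shLUC replicate 2 was also lower than shLUC replicate 1. The summed level of the list was 45384 and 47285 in shKDM1A and 64581 and 68651 in shE2F6. It was 59547 and 47932 in shLUC and 36267 and 32566 in shMAFK, so shLUC replicate 2 lay close to shKDM1A. The part of this difference between the control libraries in the result was not tested.

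The complexes of the 2 repressors were then compared. Of 17 measured genes of the KDM1A and CoREST list, 5 were higher and 3, KDM1A among them, lower without overlap (29.4% and 17.6%, beside 17.1% and 19.2% of gene rows), and the median was 0.076. RCOR2, the CoREST scaffold that embryonic stem cells use most, had 3046 and 3008 normalized tag counts in shKDM1A against 2112 and 1951 in shE2F6. Its values agreed closely within shKDM1A, and the log2 difference was 0.58 (SE 0.22, unadjusted p 0.0234, limma adjusted p 0.675). The scaffold RCOR1 had 1432 and 1472 against 1275 and 1428, and ZMYM3, a zinc finger protein of the complex, had 1998 and 2677 against 2842 and 3528. KDM1B, the paralog of KDM1A, had 250 and 276 against 307 and 312.

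Of 15 measured genes of the E2F6 and PRC1.6 list, 2 were higher and 2 lower without overlap on agreeing rows, with a median of -0.063. That is 13.3% of the list on each side, below the 17.1% and 19.2% of gene rows. E2F6 itself was the row with the larger of the higher differences. EPC1, an Enhancer of Polycomb protein, had 668 and 508 normalized tag counts in shKDM1A against 469 and 390 in shE2F6. MGA, the scaffold of PRC1.6, had 1728 and 1964 against 1991 and 2430, and its partner MAX had 390 and 527 against 551 and 570. L3MBTL2, a reader subunit, overlapped at 672 and 716 against 644 and 786. PCGF6 had 1367 and 450 against 472 and 386, so 1 shKDM1A library held its difference.

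Germline genes were examined because PRC1.6 is known to silence them. Of 47 listed genes 21 were measured, of which 7 were higher and 4 lower in shKDM1A without overlap, and 1, CTCFL, passed. These are 33.3% and 19.05% of the list, beside 17.1% and 19.2% of gene rows. The median was 0.089. The meiotic cohesin subunit STAG3 had 292 and 374 normalized tag counts in shKDM1A against 178 and 246 in shE2F6, and the meiotic recombination factor MEIOB had 200 and 216 against 146 and 114. On the other side, RIBC2 had 66 and 44 against 114 and 126, and SYCE2, a protein of the synaptonemal complex that joins meiotic chromosomes, had 86 and 134 against 172 and 152. Members thus lay on both sides, and CTCFL and MAGEA4 were far from the remaining 19, whose log2 differences ran from -1.14 to 0.68. DAZL, a germ cell RNA-binding protein, overlapped at 85 and 48 against 50 and 72.

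DNA replication and cell cycle genes are targets of activating E2F factors whose motif E2F6 shares. All 44 listed genes were measured, of which 2 were higher and 11 lower in shKDM1A without overlap, and the median was -0.017. Of gene rows 17.1% were higher and 19.2% lower. E2F8, a repressive E2F, had 182 and 257 normalized tag counts in shKDM1A against 340 and 334 in shE2F6. RRM2, a subunit of ribonucleotide reductase, had 1866 and 2249 against 3110 in both shE2F6 libraries, and TYMS, thymidylate synthase, had 1052 and 1261 against 1631 and 1450. MCM3, a subunit of the replicative helicase, overlapped at 7576 and 6012 against 6077 and 5420. The log2 differences of the list ran from -0.64 to 0.40, and 0 passed.

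Neuronal genes with REST sites were examined because REST recruits CoREST. Of 30 measured genes, 7 were higher and 4 lower without overlap on agreeing rows, and the median was 0.037. Their shares, 23.3% and 13.3%, stand beside 17.1% and 19.2% of gene rows. STMN2, which regulates microtubules in growing axons, had 162 and 136 normalized tag counts in shKDM1A against 96 and 88 in shE2F6, with 198 and 249 in shLUC. BDNF, a neurotrophin, had 316 and 239 against 180 and 200. TUBB3 and BSN, a presynaptic scaffold with 52 and 92 against 150 and 202, were the widest on the lower side, and SYP, a synaptic vesicle protein, had 72 in both shKDM1A libraries against 123 and 120. For 9 of the 30 genes the shKDM1A libraries did not agree, and replicate 1 was the higher of them for NEFL and INA. REST itself overlapped, at 1066 and 1513 against 1108 and 1586.

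**Figure D4:**
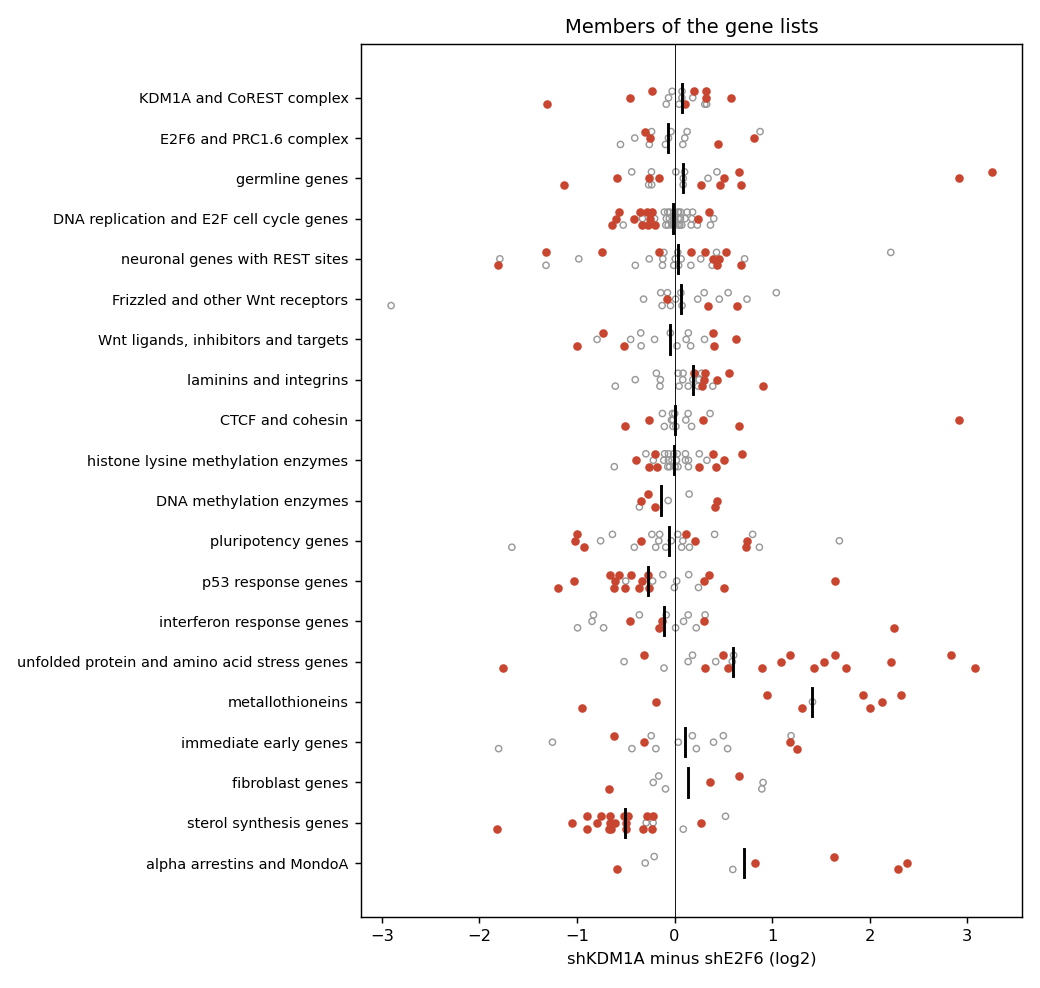
Each point is a measured gene of a list (vertical axis) and the horizontal axis is its log2 difference, shKDM1A minus shE2F6. Filled points are agreeing rows whose groups did not overlap, open points are the others, and black bars are list medians. Medians lie near 0 for most lists, at 0.60 for stress genes, 1.41 for metallothioneins and -0.51 for sterol synthesis genes.

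Of 18 measured Wnt receptors, FZD2 passed the test, and on agreeing rows 2 (11.1%) were higher and 1 (5.56%) lower without overlap, fewer than the 17.1% and 19.2% of gene rows. ROR2, a receptor tyrosine kinase for Wnt5a, had 426 and 373 normalized tag counts in shKDM1A against 246 and 266 in shE2F6, and the coreceptor LRP5 had 1334 and 1530 against 1297 and 978. FZD7, the most abundant Frizzled in this table, overlapped at 6249 and 5367 against 6408 and 6249. Of 17 ligands, inhibitors and targets of the pathway, 3 were higher and 3 lower, 17.6% each way and close to the shares of all gene rows. AXIN2, a standard target of Wnt signalling, had 778 and 734 against 550 and 432, while the ligand gene WNT5A had 128 and 94 against 147 and 228.

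Laminins are basement membrane proteins on which stem cells attach through integrins. Of 22 measured genes of the 2 families and the nidogens, 7 were higher and 0 lower in shKDM1A without overlap, where 17.1% and 19.2% of all gene rows were. The median was 0.19, and 0.073 without shKDM1A replicate 1. LAMA2, a laminin alpha chain, had 649 and 597 normalized tag counts in shKDM1A, 311 and 354 in shE2F6 and 248 and 260 in shLUC. Its log2 difference was 0.91 (SE 0.24, unadjusted p 0.00353, limma adjusted p 0.636). LAMC3, a laminin gamma chain, had 621 and 654 against 509 and 516, with 224 and 213 in shLUC. Both knockdowns thus lay above the control for LAMC3 and close to each other. The shMAFK libraries, at 363 and 344, and the shSMARCA4 libraries, at 502 and 537, lay above the control as well.

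Among chromatin genes, the paralog CTCF overlapped, at 2421 and 1855 normalized tag counts in shKDM1A against 1930 and 1983 in shE2F6, so the CTCFL difference had no counterpart of its size in CTCF. Of 17 measured CTCF and cohesin genes 3 were higher, CTCFL and STAG3 among them, and 2 were lower (17.6% and 11.8%). Of 30 enzymes that add or remove methyl groups on histone lysines, 5 were higher and 4 lower without overlap (16.7% and 13.3%). The shares of both lists lay near or below the 17.1% and 19.2% of gene rows. KDM4B, which demethylates lysine 9 of histone H3, had 2381 and 2071 against 1367 and 1388, and KDM4A had 4958 and 4452 against 3276 and 3329. SETD1A, a methyltransferase for lysine 4, had 838 and 1092 against 1323 and 1197. Of 8 DNA methylation enzymes 2 were higher and 3 lower (25% and 37.5%, beside 17.1% and 19.2% of gene rows). DNMT3A was higher, at 3207 and 3246 against 2808 and 2016, with 2891 and 3450 in shLUC. DNMT1, DNMT3B and TDG were lower, with DNMT1 at 4261 and 3738 against 4390 and 4808.

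Of 26 measured pluripotency genes, 4 were higher and 4 lower without overlap on agreeing rows, with a median of -0.062. At 15.4% in each direction, these shares lay below the 17.1% and 19.2% of gene rows. SOX2 had 6490 and 6343 normalized tag counts in shKDM1A against 5706 and 5367 in shE2F6, and NANOG overlapped at 1704 and 2923 against 2628 and 2148. DPPA2, a chromatin factor of early embryos, had 651 and 532 against 350 and 354. GDF3, a ligand of the TGF-beta family, had 223 and 201 against 430 and 434, and OTX2, a factor of primed pluripotency, had 148 and 280 against 394 and 382. POU5F1 had 148866 and 35710 against 30768 and 16615. The shKDM1A libraries did not agree there, and the first is the highest value of the table, where steps are wide. Of the 5 measured mesoderm markers 1 was higher and 1 lower without overlap. KDR, a receptor for vascular endothelial growth factor, had 7440 and 5788 against 5235 and 5300, and TEK, an angiopoietin receptor, had 278 and 288 against 510 and 447. Of the 6 measured trophoblast markers 3, the keratin genes KRT8 and KRT18 among them, were lower without overlap.

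Of 23 measured genes of the p53 response, 12 were lower and 4 higher without overlap, with a median of -0.27. That is 52.2% lower and 17.4% higher, beside 19.2% and 17.1% of gene rows. CDKN1A, the cell cycle inhibitor p21, had 162 and 136 normalized tag counts in shKDM1A, 364 and 320 in shE2F6 and 235 and 148 in shLUC. ZMAT3, an RNA-binding p53 target, had 256 and 410 against 684 and 646, with a log2 difference of -1.03 (SE 0.28, unadjusted p 0.00381, limma adjusted p 0.636). SESN2, which ATF4 also induces, had the widest gap of the higher genes, at 2404 and 2295 against 753 and 746. Of 16 measured interferon response genes, 2 (BST2 and IFIT1) were higher and 3 lower without overlap, or 12.5% and 18.8%, neither above the share of gene rows. The membrane proteins IFITM1, IFITM2 and IFITM3 were low in shKDM1A replicate 1 alone, as for IFITM1 at 1490 and 4748 against 3780 and 5923. The median of the list was -0.11. Of 16 immediate early genes 2 were higher, IER2 at 9058 and 5174 against 3740 and 2191 and ATF3, and 2 were lower (12.5% each way).

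Markers of other cells that the culture could hold were measured beside these results. Of 11 fibroblast genes 8 were measured, and 0 of the 8 were at 0 in the 4 libraries. Without overlap, 2 were higher (25%) and 1 lower (12.5%), beside 17.1% and 19.2% of gene rows. The higher genes were ACTA2, at 106 and 96 against 60 and 67, and VIM, at 3394 and 3873 against 2910 and 2726. COL3A1, LUM and DCN, also on the list, were not measured. COL1A1 had 8374 and 3126 normalized tag counts in shKDM1A against 2312 and 3276 in shE2F6, and COL1A2 had 13159 and 3474 against 3074 and 4228. Only shKDM1A replicate 1 was high, so these collagen genes did not agree. The summed level of the list was 36260 and 25626 in shKDM1A, 24366 and 25036 in shE2F6 and from 11788 to 23097 elsewhere. In bulk RNA, fewer cells of a type and less RNA per cell cannot be told apart. Of 14 erythroid and blood genes known for repression by KDM1A and GFI1B, 1 was measured, the kinase gene LYN, at 954 and 1132 against 1220 and 1468.

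Transposable elements were counted by subfamily, in 973 rows, of which 0 passed the test. Without overlap on agreeing rows, 216 subfamilies (22.2%) were higher and 77 (7.91%) lower in shKDM1A, against 17.1% and 19.2% of gene rows. The gaps were small, with 1 subfamily at least 2-fold higher and 1 at least 2-fold lower and a median log2 difference of 0.0086. Elements took up 12.8% and 16.04% of the total in the shKDM1A libraries and 14.6% and 15.01% in shE2F6. The shKDM1A libraries thus lay on either side of shE2F6.

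The share differed by family. ERVL, an old family of endogenous retroviruses, had 44 of 115 subfamilies (38.3%) higher and 6 lower, with a median of 0.18. It was 0.15 with shKDM1A replicate 1 alone and 0.16 with replicate 2 alone. ERVL-MaLR, a related family, had 23 of 76 higher and 6 lower, hAT-Tip100 DNA transposons 10 of 32 higher and 0 lower, and L1 elements, the active retrotransposons of the human genome, 35 of 130 higher and 6 lower. For L1 the median was -0.13 with replicate 1 alone and 0.21 with replicate 2 alone, so its sign differed between the libraries. Alu elements, short retrotransposons that are frequent in genes, had 1 of 48 higher and 2 lower, and their median was -0.40 with replicate 1 alone and 0.14 with replicate 2 alone. ERV1, the largest family of endogenous retroviruses in this table, had 69 of 274 higher and 27 lower, with a median of 0.010. ERVK, the family with the youngest human proviruses, had 3 of 38 higher and 1 lower, with a median of -0.049. Of DNA transposons, TcMar-Tigger had 5 of 63 higher and 3 lower and hAT-Charlie 7 of 73 higher and 7 lower, with medians of -0.12 and -0.13. How reads were shared between an element and the gene around it, or between related subfamilies, is not given in the sources used here.

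**Figure D5:**
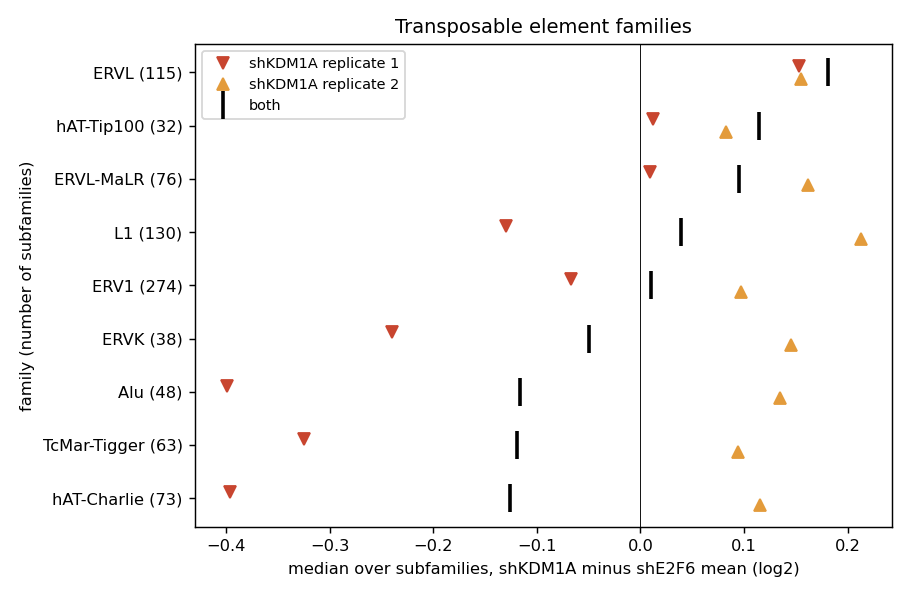
Families of transposable elements are on the vertical axis, with their number of subfamilies in brackets, and the horizontal axis is the median log2 difference from the shE2F6 mean. Triangles are single shKDM1A libraries (red, replicate 1; orange, replicate 2) and bars are both together. ERVL has both libraries on the higher side, at 0.15 and 0.16, while for Alu they lie at -0.40 and 0.14.

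SVA elements, the youngest composite retrotransposons of the human genome, were higher in shKDM1A in 5 of 6 subfamilies without overlap. Of all element subfamilies, 22.2% were higher by the same rule. The 6 subfamilies are related, so their counts may not be independent. SVA_D had 7576 and 4486 normalized tag counts in shKDM1A, 3329 and 3314 in shE2F6 and 3190 and 4196 in shLUC. SVA_F had 2394 and 1780 against 1194 and 1048, with 1259 and 1835 in shLUC. In each subfamily replicate 1 was the higher shKDM1A library. The log2 differences were 0.81 (SE 0.29) and 0.88 (SE 0.39), with limma adjusted p values of 0.675 and 0.680. MER52A, an ERV1 repeat, had 1090 and 810 against 546 and 480. On the lower side, L1P3b, an old L1 subfamily, had 238 and 220 against 424 and 418, a log2 difference of -0.88 (SE 0.22, limma adjusted p 0.636).

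Promoters of genes with wide gaps were read for the motifs of the factors named above, in the 250 bases before the RefSeq start (GRCh38.p14) and on both strands. Of 15 promoters read, 5 hold 1 of the motifs and 10 hold none, CTCFL, MAGEA4, DDIT4, TRIB3, SESN2, DDIT3, PCK2, STC2, HMGCS1 and BST2. The 5 with a motif are shown so that it can be seen in its place, in capitals. TXNIP (chr1:145996580-145996829, minus strand) holds a carbohydrate response element, the paired E-box to which MondoA binds, 71 bases before the start. ARRDC4 (chr15:97960453-97960702, plus strand) holds the E-box CACGTG, 204 bases before it. CHAC1 (chr15:40953221-40953470, plus strand) holds, on its other strand, the element TGATGNAA to which ATF4 with a CEBP partner binds, 201 bases before it. APC2 (chr19:1449871-1450120, plus strand) holds the E2F motif TTCCCGC, 52 bases before it. FOXP4 (chr6:41546131-41546380, plus strand), lower in shKDM1A, holds CACGTG 216 bases before it.
TXNIP: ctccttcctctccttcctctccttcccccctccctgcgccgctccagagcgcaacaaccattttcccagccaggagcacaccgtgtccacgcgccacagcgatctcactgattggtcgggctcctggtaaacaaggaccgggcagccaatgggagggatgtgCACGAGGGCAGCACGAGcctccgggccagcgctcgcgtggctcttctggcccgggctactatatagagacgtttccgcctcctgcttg
ARRDC4: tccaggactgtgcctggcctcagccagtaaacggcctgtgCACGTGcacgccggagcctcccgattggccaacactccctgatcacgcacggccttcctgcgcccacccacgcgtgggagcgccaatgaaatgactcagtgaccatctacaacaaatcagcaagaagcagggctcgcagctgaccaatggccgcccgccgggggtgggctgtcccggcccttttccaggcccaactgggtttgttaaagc
CHAC1: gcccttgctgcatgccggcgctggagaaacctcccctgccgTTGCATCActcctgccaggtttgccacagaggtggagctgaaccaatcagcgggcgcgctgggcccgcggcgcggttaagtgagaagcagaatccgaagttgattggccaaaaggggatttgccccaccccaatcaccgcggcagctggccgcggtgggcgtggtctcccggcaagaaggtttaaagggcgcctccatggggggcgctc
APC2: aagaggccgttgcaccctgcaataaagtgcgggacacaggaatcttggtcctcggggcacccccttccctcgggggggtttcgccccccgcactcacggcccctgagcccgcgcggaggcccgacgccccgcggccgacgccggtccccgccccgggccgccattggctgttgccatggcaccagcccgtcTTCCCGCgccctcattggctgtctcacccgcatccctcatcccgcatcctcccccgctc
FOXP4: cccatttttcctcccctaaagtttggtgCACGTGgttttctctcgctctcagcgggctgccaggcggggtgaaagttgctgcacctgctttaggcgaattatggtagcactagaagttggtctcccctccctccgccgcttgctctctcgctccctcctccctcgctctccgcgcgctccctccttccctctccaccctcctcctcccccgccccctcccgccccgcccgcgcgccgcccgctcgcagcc

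The motifs were then counted over promoters. TTCCCGC was in 5.52% of 35116 RefSeq promoters and 9.01% of the 10488 promoters matched to measured genes. Among matched genes at least 2-fold apart it was in 9 of 134 higher (6.72%) and 6 of 73 lower (8.22%), so the share lay near that of measured genes in both directions. CACGTG was in 8.82% of measured, 8.21% of higher and 8.22% of lower genes. TGATGNAA was in 1.41% of measured genes, in 6 higher (4.48%) and in 3 lower (4.11%). The paired element, searched as CACGNG and CNCGNG with NNNNN between them, was in 0.658% of measured genes, in 1 higher gene (0.746%) and in 0 lower genes. A match of the paired element can overlap one of CACGTG. Such a match describes letters in a window and no binding.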

How the data were processed

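RNA-seq values were taken from the table of single libraries, whose column names equal the sample descriptions; 0 columns were left unmapped. The deposited values are scores, whole numbers normalized by the authors, read as normalized tag counts. The submitters' processing notes name STAR, STARsolo and the build hg38, while the counter, the annotation and the normalization are not given in the sources used here. Gene positions are from GENCODE release 29 on GRCh38. Rows with a mean of at least 10 (all 14785) were analysed as log2(value + 1) with limma 3.58.1 in R 4.3.3: 1 fit of all 10 libraries with group weights and a mean-variance trend, two-sided, with p-values adjusted over the whole table (Benjamini-Hochberg) and a threshold of 0.05. The fit was tested on simulated data. With 2 libraries a group, p-values rest on the spread within the groups of all 10 libraries, not within shKDM1A and shE2F6 alone. They measure no variation beyond these libraries.

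The comparison, its 23 gene lists and the rule for named rows were chosen with earlier results of these data known, and 2 lists (sterol synthesis, alpha arrestins) after the values were seen. The rule named the targets, rows past the threshold, the 12 gene and 4 element rows with the widest gaps in each direction (higher group at least 100, no value above 15000, libraries of each group at most 1 apart) and, per list, the first 2 members and up to 4 with the widest gaps. Other rows were named after their values were seen. Alternatives covered weights, libraries in the fit, trend, pseudocount, filter, scaling, agreement limit, a replicate block and leaving out each library. Tables and plots used Python 3.11.15, pandas 2.3.3 and matplotlib 3.10.9.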

Additional observations from a re-analysis of the deposited data

How the results depend on the processing

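The count of rows past the threshold was 2 with group weights, 19 without them and 0 in a fit of only the 4 libraries (smallest limma adjusted p 0.103, with 978 rows at an unadjusted p under 0.05). It ran from 0 to 45 when each library was left out: 0 without shKDM1A replicate 1, 45 without shKDM1A replicate 2, 0 without shE2F6 replicate 2 and 2 without shE2F6 replicate 1, a lone library being assumed to vary like its group. It was 3 without the mean-variance trend and 2 with another pseudocount, filter or scaling. Over all rows, the replicate differences of the 2 groups correlated at 0.032, so no pairing by replicate number was seen across the table. This value cannot exclude a batch that touched only some rows. With the number as a replicate block 2 rows passed, with a limma adjusted p of 0.0443 for CTCFL and FZD2. The log2 differences were then -1.31 for KDM1A and 0.82 for E2F6, and the block changed no other call. KDM1A ran from -1.71 to -0.91 and E2F6 from 0.64 to 1.00 when each library was left out.

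Rows at least 2-fold apart numbered 205 higher and 107 lower, 117 and 61 with shKDM1A libraries at most 0.5 apart, and 274 and 250 with no limit. When each library was left out they ran from 217 to 844 and from 106 to 982. The counts of 844 and 982 came without shKDM1A replicate 2, and 200 lower rows without shE2F6 replicate 1. With 1 shKDM1A library left out, no agreement limit could apply and overlap was judged on the other alone. Those counts are therefore not like for like with 205 and 107. Limited to rows with shLUC libraries under 2-fold apart, added after seeing the data, the 205 and 107 rows became 174 and 102. The cause was not tested.

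Of 1559 comparisons of 120 named rows, 1535 kept direction and call. The sign turned in these when each library was left out: COL1A2 (-0.053 to 1.87), CTCF (-0.077 to 0.31) and KMT2A (-0.61 to 0.021) without shKDM1A replicate 1, FOS (-0.24 to 0.32) and ISG15 (-0.59 to 0.42) without shKDM1A replicate 2 (-0.15 and 0.42) and shE2F6 replicate 2 (-0.24 and 0.29), and MCM2 (-0.0073 to 0.36) without shE2F6 replicate 2. SP5, at values up to 3, was at 0.33 under quantile normalization. List medians moved by more than their spread in 58 of 325 comparisons. Depth is unknown, so no limit from it can be given.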
